A study of Xenopus laevis with 12 samples.

Results

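The late response of frog retinal ganglion cells to a crushed optic nerve was described from 4 of the 12 libraries of a series on Xenopus laevis. Both libraries from the crushed eyes at days 7 and 11 after surgery were compared with both libraries from the contralateral eyes of the same days, with the day as a block. The measured RNA was ribosome-bound RNA of ganglion cells, recovered by translating ribosome affinity purification (TRAP): the frogs were F1 progeny of single founder lines carrying Tg(Islet2b:EGFP-RPL10a), in which the islet2b promoter drives an EGFP-tagged large-subunit ribosomal protein, and ribosomes were pulled down with antibodies to EGFP. All frogs, controls included, carried this transgene and were post-metamorphic animals older than 6 months. The crushed group had its right optic nerve crushed with forceps, and the contralateral group is the untreated left eye of the operated frogs. The labels give the right eye as the crushed one; elsewhere the design text speaks of the left nerve, and the labels were followed. Each TRAP library pooled RNA from 3 independent biological replicates, so a library averages over animals. The 2 pools of a side are of different days. With the day as block, the spread used below is how the crush difference changed between the days, moderated by a prior shared over genes. Pool-to-pool spread within a day was not measured.

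Unlike those of mammals, retinal ganglion cells of frogs can regrow their axons to the brain after an optic nerve crush. Axon injury in neurons is known to switch on a group of stress-responsive transcription factors (the AP-1 family, ATF3, C/EBP and SOX11), cytokine signalling through JAK and STAT with SOCS feedback inhibitors, and growth of the machinery that makes protein and cytoskeleton. Genes that serve mature function, such as ion channels, transmitter release and cell identity, are known to fall in injured neurons of mammals. Because TRAP recovers RNA on tagged ribosomes, a change in it can come from transcript abundance or from ribosome loading, and in bulk RNA fewer cells of a type and less RNA per cell cannot be told apart.

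Total counts were 16820571 and 43576308 in the contralateral libraries of days 7 and 11 and 63299998 and 46385324 in the crushed ones, and pairs of values are given in this order of days throughout. Markers of the sampled cell stood above total retina in both groups, by less in the crushed one. Set against the total retina library, ganglion cell markers had median log2 ratios of 3.07 and 2.93 in the contralateral libraries and 1.02 and 0.88 in the crushed ones. Of 55 marker models, 46 and 49 had enough counts to enter in the contralateral libraries and 42 and 41 in the crushed ones. Models with too few counts are not in these medians. Photoreceptor markers had medians of -3.91 and -3.63 in the contralateral libraries and -4.18 and -4.19 in the crushed ones. Levels are given as CPM, counts scaled to the library's size with the TMM factors of edgeR. The rpl10a.S model, which may also take reads of the transgene, had 484 and 437 CPM in the contralateral and 1149 and 1347 CPM in the crushed libraries. The crushed libraries also differed in composition, with their 10 most counted genes holding 4.54% and 5.92% of counts against 3.82% and 3.54%. Their abundance-weighted effective gene length was 1563 and 1511 bases, against 1739 and 1781 in the contralateral ones.

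Crush changed a large part of the measured genes in the same way on both days. Of 26501 genes tested, 11079 (41.8%) passed at a Benjamini-Hochberg adjusted p of 0.05 in edgeR's quasi-likelihood test: 5982 were higher after crush (22.6%) and 5097 lower (19.2%). None of the called genes had opposite signs at the 2 days, which the test itself favours, and 12787 genes had an unadjusted p under 0.05. The median log2 fold change was 1.28 among the higher and -1.46 among the lower. Over 4-fold changes numbered 1400 up and 1644 down, and over 16-fold changes 404 and 326. Among the higher genes 100 had 0 counts in both contralateral libraries, and among the lower 54 had 0 in both crushed ones. Such genes enter the counts over 4-fold and 16-fold by fitted values. Of the 26501 genes tested, both crushed libraries lay above both contralateral ones in 9542 and below in 9525. Most genes tested thus had no overlap between the groups. All called genes named below had none either, which their choice by the call favours. How many were higher and how many lower turned on the scaling. By total counts instead of TMM, which shifted the median of all genes by -0.34 on the log2 scale, 3943 were higher and 6947 lower. With all 7 uninjured TRAP libraries as controls, 7095 of 28631 genes were higher and 6804 lower. Leaving out 1 library also changed the number called over all genes. List counts given below for another setting are therefore not to be read against 22.6% and 19.2%. Of the 11079 called genes, 3797 higher and 2882 lower carry a symbol, out of 14605 tested models with one. Their share called higher was above 22.6%. Members of the gene lists below all carry a symbol, while the shares over all genes tested include models without one. The other called genes are unnamed models. Of these, Xelaev18036436m rose from 2.03 and 2.94 to 352 and 363 CPM, and Xelaev18036514m fell from 657 and 695 to 6.3 and 5.5 CPM.

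**Figure D1:**
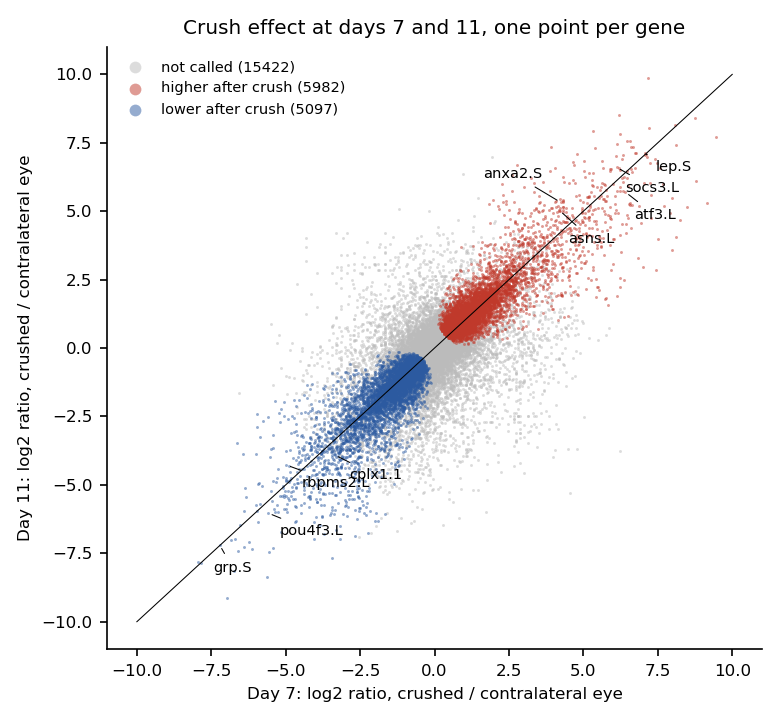
Log2 ratio of crushed to contralateral eye at day 7 (horizontal) and day 11 (vertical) for each of the 26501 genes tested, in units of log2; red points are the 5982 genes called higher, blue the 5097 called lower and grey those not called, and the line marks equal ratios. Called genes lie near the line in both quadrants of agreement, and the labelled genes are far out at both days.

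The genes that rose furthest include a hormone of the cytokine family, its receptor and proteins that bind cytoskeleton. Leptin, lep.S, had 1.66 and 1.38 CPM in the contralateral and 236 and 193 CPM in the crushed libraries (log2 fold change 7.13 ± 0.22 (SE), edgeR adjusted p = 5.26e-11). Both contralateral libraries were under 2 CPM and both crushed libraries far above, with no overlap. upp2.L, a uridine phosphorylase, had 1.12 and 0.345 CPM in the contralateral and 172 and 103 CPM in the crushed libraries (213-fold, edgeR adjusted p = 8.70e-11). The TNF receptor family member eda2r-like.1 had 1.55 and 0.77 CPM in the contralateral and 119 and 74.6 CPM in the crushed libraries (86.6-fold, edgeR adjusted p = 1.16e-10). The LIM-domain protein fhl3.L had 1.82 and 2.39 CPM in the contralateral and 120.1 and 157 CPM in the crushed libraries (65.7-fold, edgeR adjusted p = 8.70e-11). medag.S had 0.0535 and 0.264 CPM in the contralateral and 27.8 and 53.1 CPM in the crushed libraries (229.9-fold, edgeR adjusted p = 6.86e-10). All of these were low in both uninjured eyes and did not overlap the crushed ones. csrp3.L, a muscle LIM protein, had 0 and 2 counts in the contralateral libraries and 760 and 998 in the crushed, a ratio of 608 with an exact 95% counting interval of 168 to 5024. The intermediate filament genes vim.L and nes.L rose too. vim.L had 4.81 and 10.3 CPM in the contralateral and 181 and 385 CPM in the crushed libraries (log2 fold change 5.23 ± 0.19 (SE), edgeR adjusted p = 1.16e-10). nes.L had 0.535 and 1.11 CPM in the contralateral and 33.3 and 34.1 CPM in the crushed libraries (39.1-fold, edgeR adjusted p = 8.60e-09). vim and nes are also expressed by glia and progenitors, whose markers are described further on. alb-like.1.S had 0 counts in both contralateral libraries and was at least 132-fold higher, taking 3 counts over the contralateral pair as the limit. Among called genes with a symbol, the largest gains in CPM were tubulins, rpl3.L, eef1g.L, eef1b2.L and hspa8.S, which are treated with their groups.

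The genes that fell furthest include a neuropeptide, potassium channel subunits, calcium sensors and transcription factors. Gastrin-releasing peptide, grp.S, had 399 and 273 CPM in the contralateral and 2.62 and 1.82 CPM in the crushed libraries (log2 fold change -7.24 ± 0.21 (SE), edgeR adjusted p = 5.26e-11). It was high in both uninjured eyes and close to absent in both crushed ones. The homeobox factor irx4.L had 241 and 256 CPM in the contralateral and 5.43 and 5.22 CPM in the crushed libraries (log2 fold change -5.54 ± 0.19 (SE), edgeR adjusted p = 8.70e-11). The POU-domain factor pou4f3.L had 80.1 and 82.3 CPM in the contralateral and 1.62 and 1.21 CPM in the crushed libraries (57.1-fold, edgeR adjusted p = 1.63e-10). fxyd7.L, a regulator of the sodium pump, had 50.3 and 55.3 CPM in the contralateral and 0.392 and 0.378 CPM in the crushed libraries (135-fold, edgeR adjusted p = 1.36e-10). Neither group of libraries overlapped the other in these genes. The calcium-binding potassium channel partner kcnip3.L had 1548 and 1576 CPM in the contralateral and 44.5 and 37.1 CPM in the crushed libraries (log2 fold change -5.26 ± 0.20 (SE), edgeR adjusted p = 1.36e-10). The neuronal calcium sensor hpcal4.L had 411 and 398 CPM in the contralateral and 14.9 and 11.7 CPM in the crushed libraries (30.7-fold, edgeR adjusted p = 1.33e-10). The modulatory potassium channel subunit kcns1.S had 63.8 and 62.1 CPM in the contralateral and 0.715 and 0.959 CPM in the crushed libraries and its homeolog kcns1.L 80.0 and 70.0 CPM in the contralateral and 1.09 and 0.378 CPM in the crushed libraries (76.1-fold and 103-fold lower, edgeR adjusted p = 1.91e-10 and 4.28e-09). spa17.1 and vsig2.1 fell 115-fold and 56.2-fold (edgeR adjusted p = 3.59e-09 and 1.69e-08). The link protein hapln4.L had 11.1 and 11.1 CPM in the contralateral libraries and 0 counts in both crushed ones, at least 363-fold lower, and the oxidase aox1.L had 11.9 and 10.7 CPM and 0 counts, at least 361-fold lower.

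**Figure D2:**
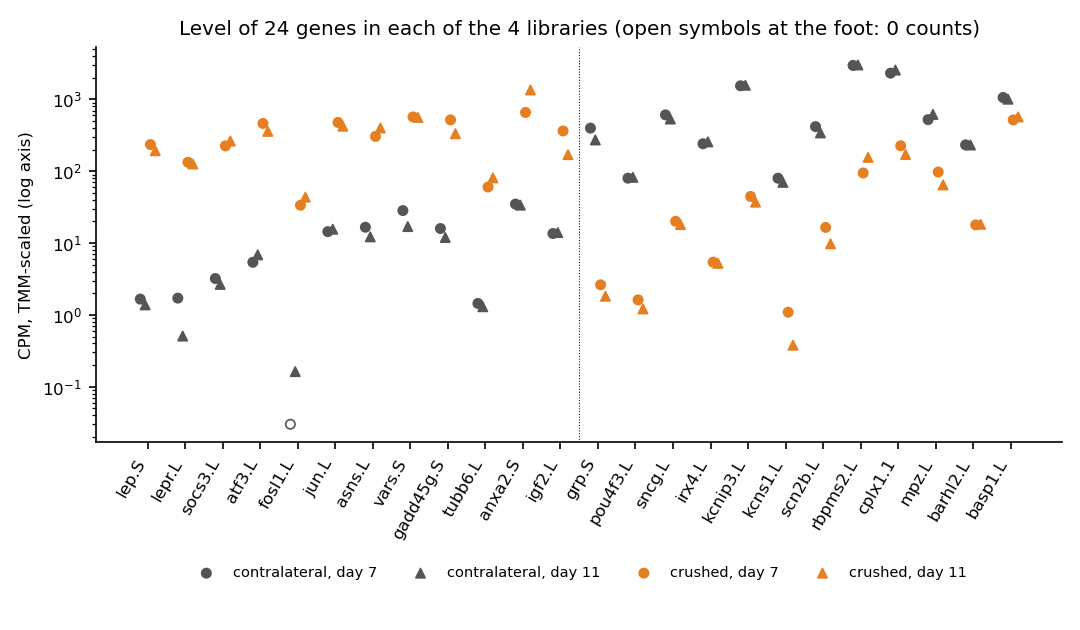
Levels of 24 genes in the 4 libraries, in TMM-scaled CPM on a log axis; grey is the contralateral and orange the crushed eye, circles day 7 and triangles day 11, and an open symbol at the foot marks 0 counts. Genes called higher stand left of the dotted line and genes called lower right of it, and in each gene the crushed and contralateral libraries do not overlap.

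Injury-response transcription factors moved in both directions. Of 48 tested, 27 were higher, 13 lower and 8 not called, beside 22.6% higher and 19.2% lower over all genes tested, with a median log2 fold change of 1.24 against -0.01 over all genes tested. Every tested copy of the AP-1 partners jun, junb, jund, fosl1 and atf3, and of the growth-associated factors sox11, klf6, klf7, smad1, cebpb and cebpd, rose. atf3.L, a stress-inducible factor, had 5.4 and 6.85 CPM in the contralateral and 463 and 359 CPM in the crushed libraries (log2 fold change 6.04 ± 0.23 (SE), edgeR adjusted p = 1.26e-10). jun.L had 14.4 and 15.6 CPM in the contralateral and 478 and 424 CPM in the crushed libraries (log2 fold change 4.90 ± 0.19 (SE), edgeR adjusted p = 1.37e-10). The gene jun.S started higher and rose less, from 38.4 and 38.9 to 545 and 589.8 CPM (14.7-fold, edgeR adjusted p = 6.86e-10). fosl1.L was close to absent in the uninjured eyes, at 0 and 0.162 CPM, and reached 33.6 and 43.6 CPM (edgeR adjusted p = 1.99e-09). sox11.L, a factor of immature neurons, had 95.6 and 93.4 CPM in the contralateral and 593 and 675 CPM in the crushed libraries (6.7-fold, edgeR adjusted p = 1.26e-08), and the BMP effector smad1.L rose 8.57-fold (edgeR adjusted p = 3.62e-07). All crushed libraries lay above all contralateral ones for each of them. Other factors of the list fell. fos.L had 19.9 and 35 CPM in the contralateral and 1.23 and 1.08 CPM in the crushed libraries (log2 fold change -4.50 ± 0.32 (SE), edgeR adjusted p = 4.55e-08). fos.S had 33.3 and 62.5 CPM in the contralateral and 3.8 and 1.97 CPM in the crushed libraries (16.1-fold, edgeR adjusted p = 5.79e-04). nr4a1.L had 6.63 and 11.9 CPM in the contralateral and 1.52 and 1.31 CPM in the crushed libraries (6.29-fold, edgeR adjusted p = 7.08e-05). Also lower were mafg.L (9.32-fold), klf9.L (4.02-fold) and bhlhe40.L (3.46-fold), with edgeR adjusted p = 5.09e-07, 1.03e-05 and 9.17e-07. cebpa.1, unlike its relatives cebpb and cebpd, fell 8.93-fold (edgeR adjusted p = 6.87e-06).

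Cytokine feedback genes were among the strongest risers. Beside 22.6% higher and 19.2% lower over all genes tested, 22 of the 43 genes of the list were not called. Of these genes 15 were higher and 6 lower, with a median of 0.17 that became -0.16 with total-count scaling; the lower count was 2 and 1 without the contralateral library of day 7 and of day 11, 10 with total counts and 10 with all 7 uninjured TRAP libraries as controls. The feedback inhibitor socs3.L had 3.21 and 2.66 CPM in the contralateral and 226 and 263 CPM in the crushed libraries (log2 fold change 6.41 ± 0.22 (SE), edgeR adjusted p = 8.70e-11). socs3.S had 1.28 and 2.09 CPM in the contralateral and 121 and 130.4 CPM in the crushed libraries (73-fold, edgeR adjusted p = 1.16e-10). The related inhibitors cish.S and cish.L rose 61.1-fold and 46.6-fold (edgeR adjusted p = 3.87e-10 and 5.88e-10). The kinases pim1.S and pim1.L rose 12.2-fold and 10.8-fold (edgeR adjusted p = 1.74e-09 and 2.10e-09). The leptin receptor gene lepr.L had 1.71 and 0.507 CPM in the contralateral and 133 and 126 CPM in the crushed libraries (log2 fold change 7.12 ± 0.37 (SE), edgeR adjusted p = 4.60e-07). lepr.S had 3.26 and 2.72 CPM in the contralateral and 102 and 90.9 CPM in the crushed libraries (32.5-fold, edgeR adjusted p = 2.17e-10). lep.L, the second copy of leptin, had 0.374 and 0 CPM in the uninjured eyes and 61 and 45 CPM after crush (edgeR adjusted p = 4.69e-05). il11ra.L, the receptor of interleukin 11, rose 7.05-fold (edgeR adjusted p = 6.27e-06). lif.L and lif.S, genes of leukemia inhibitory factor, had 0 counts in both contralateral libraries. After crush they had 0.494 and 0.53 and 0.409 and 0.429 CPM. Neither passed (edgeR adjusted p = 0.063 and 0.0923). Of the 12 alternative settings, lif.L passed in 6, DESeq2 among them (adjusted p = 0.0408), and lif.S in 4. The receptor gene of that factor, lifr, fell in both copies (1.69-fold and 1.95-fold, edgeR adjusted p = 0.0436 and 0.0334). The janus kinases jak1 and jak2 were not called in any tested copy.

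Most listed genes of amino acid synthesis and nearly all tested that charge tRNAs rose, beside 22.6% higher and 19.2% lower over all genes. Of 40 ATF4 targets and amino acid synthesis genes 29 were higher, 6 lower and 5 not called (median 1.44). The stress factor ddit3.L had 13.3 and 13.2 CPM in the contralateral and 275 and 260.3 CPM in the crushed libraries (log2 fold change 4.33 ± 0.18 (SE), edgeR adjusted p = 2.74e-10). The serine synthesis enzyme psph.S had 11.2 and 14.7 CPM in the contralateral and 139.8 and 199 CPM in the crushed libraries (13.1-fold, edgeR adjusted p = 1.17e-09). Asparagine synthetase asns.L had 16.6 and 12.2 CPM in the contralateral and 305 and 400.2 CPM in the crushed libraries (24.7-fold, edgeR adjusted p = 5.01e-09). The factor atf4.S itself rose 2.68-fold (edgeR adjusted p = 1.31e-05), while vldlr.L and gpt2.L fell 3.99-fold and 2.99-fold (edgeR adjusted p = 2.27e-05 and 2.86e-05). Among 23 amino acid transporters 12 rose, 2 fell, both copies of slc43a2, and 9 were not called; the lower count was 4 by total counts, 4 without the crushed library of day 7 and 1 without any other single library. The cationic transporter slc7a3.L had 20.9 and 20.4 CPM in the contralateral and 361 and 416 CPM in the crushed libraries (18.8-fold, edgeR adjusted p = 3.87e-10), and slc1a5.L and slc1a4.L, neutral amino acid carriers, rose 12.6-fold and 12.2-fold (edgeR adjusted p = 4.54e-09 and 8.36e-09). Of 30 gene models of aminoacyl-tRNA synthetases, from 17 of 41 listed symbols, 29 rose and none fell (median 2.12). The exception, lars.S, had 0 and 0.223 CPM in the contralateral and 0.426 and 0.353 CPM in the crushed libraries. vars.S had 28.3 and 17 CPM in the contralateral and 571 and 561 CPM in the crushed libraries (log2 fold change 4.69 ± 0.22 (SE), edgeR adjusted p = 8.41e-10), kars.L rose 8.8-fold and gars.L 5.37-fold (edgeR adjusted p = 3.40e-09 and 4.48e-08). At day 3 the medians of the synthetases, the ATF4 list and the transporters were 1.47, 1.77 and 0.92.

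Most listed genes of ribosome production and translation rose, beside 22.6% higher and 19.2% lower over all genes tested. Of 56 tested gene models of cytosolic ribosomal proteins, from 30 of 78 listed symbols, 55 were higher and none lower (median 1.55). Together the models of these symbols held 3.88% and 4.23% of TPM in the contralateral libraries and 8.29% and 8.58% in the crushed ones. rpl3.L had 1123 and 1099.7 CPM in the contralateral and 4498 and 4705 CPM in the crushed libraries (log2 fold change 2.05 ± 0.19 (SE), edgeR adjusted p = 4.73e-07). rpl15.S had 191 and 219 CPM in the contralateral and 822 and 825 CPM in the crushed libraries (4.02-fold, edgeR adjusted p = 2.41e-07). rplp0.S had 80.7 and 69.2 CPM in the contralateral and 320.1 and 347 CPM in the crushed libraries (4.46-fold, edgeR adjusted p = 1.13e-07). Tagged rpl10a is itself a ribosomal protein, so these members and the capture share a component. Ribosome biogenesis factors had 69 of 79 higher and 2 lower, and their median was 2.24 at day 7 and 2.02 at day 11. The nucleolar protein nolc1.L had 38.8 and 38.8 CPM in the contralateral and 372 and 265 CPM in the crushed libraries (8.08-fold, edgeR adjusted p = 9.12e-09). fbl.S, the fibrillarin that methylates ribosomal RNA, had 11.5 and 12.4 CPM in the contralateral and 141 and 90.3 CPM in the crushed libraries (9.37-fold, edgeR adjusted p = 2.14e-08). nhp2.S, of the snoRNA complexes, rose 8.49-fold (edgeR adjusted p = 6.91e-09). Translation factors rose in 47 of 62 and fell in 4, 1 without the contralateral library of day 7 (median 1.07). The elongation factor subunit eef1b2.L had 201 and 199 CPM in the contralateral and 1744 and 2355 CPM in the crushed libraries (log2 fold change 3.34 ± 0.20 (SE), edgeR adjusted p = 6.85e-09). eef1g.L had 812 and 868 CPM in the contralateral and 3103 and 3825 CPM in the crushed libraries (4.1-fold, edgeR adjusted p = 4.71e-07). eef2k.L, the kinase that inhibits elongation, fell 2.6-fold (edgeR adjusted p = 0.00136). Nuclear transport factors rose in 31 of 39 (median 1.14): the import adaptors kpna2.L and kpna2.S rose 9.75-fold and 10.8-fold (edgeR adjusted p = 9.30e-09 and 5.95e-08). Mitochondrial ribosomal proteins rose in 43 of 74 (median 0.72), a count that was 26 with total-count scaling.

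Protein folding and turnover genes were mostly higher as well, beside 22.6% higher and 19.2% lower over all genes tested. Proteasome subunits rose in 61 of 66 with none lower (median 1.27), holding 0.715% and 0.678% of TPM in the contralateral libraries and 1.19% and 1.18% in the crushed ones. psma2.S had 76 and 64 CPM in the contralateral and 272 and 282 CPM in the crushed libraries (3.97-fold, edgeR adjusted p = 2.23e-07). The ATPase subunit psmc3.L had 119.7 and 105 CPM in the contralateral and 397 and 420.4 CPM in the crushed libraries (3.64-fold, edgeR adjusted p = 4.07e-07), and psmd10.L rose 5.44-fold (edgeR adjusted p = 3.02e-07). The chaperonin CCT and prefoldin, which fold tubulin and actin, rose in 17 of 23 (median 1.30). tcp1.L had 198 and 191 CPM in the contralateral and 926 and 1003 CPM in the crushed libraries (log2 fold change 2.31 ± 0.17 (SE), edgeR adjusted p = 7.32e-08), and cct2.L rose 5.23-fold (edgeR adjusted p = 3.81e-08). Of 33 cytosolic heat shock proteins 23 rose and 1 fell. hspa8.S, the constitutive Hsp70, had 1016 and 914 CPM in the contralateral and 2902 and 3026 CPM in the crushed libraries (3.07-fold, edgeR adjusted p = 3.85e-06). The small heat shock protein cryab.L had 9.09 and 6.36 CPM in the contralateral and 128 and 129.6 CPM in the crushed libraries (log2 fold change 4.09 ± 0.20 (SE), edgeR adjusted p = 1.47e-09). hsp90aa1.1.L rose 4.76-fold (edgeR adjusted p = 8.44e-08). Endoplasmic reticulum chaperones rose in 20 of 34 (median 0.73). hspa5.L, the luminal chaperone BiP, had 45.5 and 39.3 CPM in the contralateral and 183 and 202 CPM in the crushed libraries (4.55-fold, edgeR adjusted p = 1.19e-07), and xbp1.S, a factor of the unfolded protein response, rose 6.03-fold (edgeR adjusted p = 7.02e-07).

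**Figure D3:**
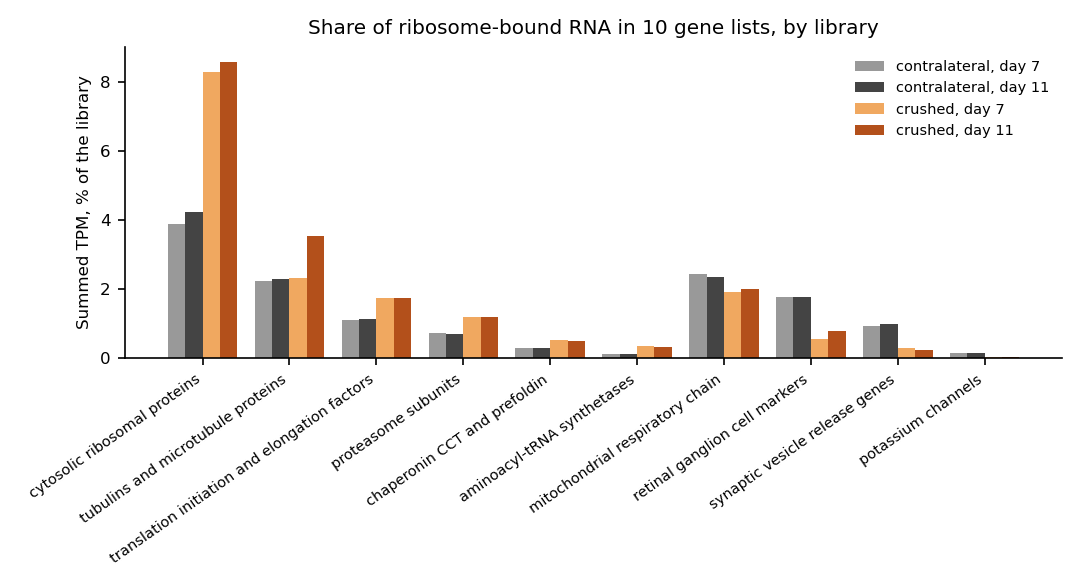
Summed TPM of 10 gene lists as a percent of each library, with 1 bar per library (2 contralateral in grey, 2 crushed in orange). The cytosolic ribosomal proteins with a matching symbol rise from 3.88% and 4.23% to 8.29% and 8.58%. The synaptic, potassium channel, ganglion cell marker and respiratory chain lists fall.

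Energy and lipid metabolism changed less evenly, and the shares over all genes tested were 22.6% higher and 19.2% lower. Sterol and isoprenoid synthesis had 16 of 27 higher (median 0.98), a count that became 9 and 9 without the contralateral library of day 7 and of day 11. The median was 0.37 at day 7 and 1.51 at day 11, 1.58 without the crushed library of day 7 and 0.39 without that of day 11. The regulator srebf1.S rose 3.5-fold and srebf1.L 3.91-fold (edgeR adjusted p = 3.62e-06 and 6.43e-06). Farnesyl diphosphate synthase fdps.L had 37.8 and 31.1 CPM in the contralateral and 93.4 and 382 CPM in the crushed libraries. It did not pass (edgeR adjusted p = 0.0924), but did in 8 of the 12 alternative settings. DESeq2 (adjusted p = 0.0396) and RLE and total-count scaling were among these. Its crushed libraries lay above both contralateral ones but far apart from each other. The respiratory chain had 29 of 93 higher and 4 lower (median 0.24); by total counts these were 9 and 17 with a median of -0.10, and without the contralateral library of day 7 or of day 11 17 and 10 were higher and 2 and 2 lower. Without the crushed library of day 11 8 were lower. By TPM the respiratory chain list fell, from 2.44% and 2.33% in the contralateral libraries to 1.92% and 1.99% in the crushed ones. In CPM its tested members summed to 10103 and 9388 in the contralateral and 11181 and 12746 in the crushed libraries. cox5a.L and cycs.L (cytochrome c) rose 2.18-fold and 2.97-fold (edgeR adjusted p = 4.40e-05 and 3.59e-06). Glycolysis had 9 of 23 higher and 4 lower, with a median of 0.25 that was -0.08 by total counts. Of these, pfkfb3.S, which makes the activator of phosphofructokinase, rose 2.89-fold and pdk1.L fell 2.12-fold (edgeR adjusted p = 8.33e-06 and 6.96e-05). In polyamine and arginine metabolism 6 of 19 rose and 3 fell, shares of 31.6% and 15.8% that are near those over all genes. The lower count was 7 by total counts, where the median of 0.18 became -0.16, 6 against all 7 uninjured TRAP libraries, 6 without the crushed library of day 7 and 1 without the contralateral library of day 11. Ornithine decarboxylase odc1.L, the first enzyme of polyamine synthesis, had 58.1 and 39.2 CPM in the contralateral and 412 and 399 CPM in the crushed libraries (8.51-fold, edgeR adjusted p = 8.30e-09). Arginase arg2.S had 11.6 and 11 CPM in the contralateral and 158 and 102 CPM in the crushed libraries (11.2-fold, edgeR adjusted p = 4.83e-09).

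Cytoskeletal genes moved in both directions, beside 22.6% higher and 19.2% lower over all genes tested. The 23.1% of tubulins that fell and the 19.4% of growth cone proteins that rose were near these shares. The 11.1% of actin-binding proteins that fell lay below the share over all genes. Of 26 tubulins and microtubule proteins 14 rose and 6 fell, 3 without the contralateral library of day 11 (median 0.61), holding 2.23% and 2.28% of TPM in the contralateral libraries and 2.32% and 3.54% in the crushed ones. tubb6.L had 1.44 and 1.3 CPM in the contralateral and 60.3 and 80.9 CPM in the crushed libraries (log2 fold change 5.72 ± 0.25 (SE), edgeR adjusted p = 3.87e-10). The neuronal isotype tubb3.S had 773 and 655 CPM in the contralateral and 2028 and 3915 CPM in the crushed libraries (3.96-fold, edgeR adjusted p = 1.68e-04). tuba1b.S had 2039 and 2008 CPM in the contralateral and 5828 and 9983 CPM in the crushed libraries, called in edgeR (edgeR adjusted p = 6.05e-06) and not in DESeq2 (adjusted p = 0.168). Microtubule stabiliser map6.L had 575 and 577 CPM in the contralateral and 212 and 208 CPM in the crushed libraries (2.74-fold, edgeR adjusted p = 3.83e-06), and tuba4b.L fell 7.33-fold (edgeR adjusted p = 6.91e-07). Actin-binding and assembly proteins rose in 40 of 72 and fell in 8, 5 without the contralateral library of day 7. The crosslinker flnc.L had 1.07 and 0.831 CPM in the contralateral and 84.8 and 52.3 CPM in the crushed libraries (log2 fold change 6.11 ± 0.25 (SE), edgeR adjusted p = 1.90e-10). myl12b.S, a myosin light chain, had 457 and 423 CPM in the contralateral and 1650.3 and 1797 CPM in the crushed libraries (3.92-fold, edgeR adjusted p = 4.57e-07), while the Ena/VASP protein evl.L fell 2.5-fold (edgeR adjusted p = 9.31e-06). Annexins, S100 proteins and calpains rose in 18 of 24 with none lower (median 1.75). anxa2.S, a calcium-dependent membrane binder, had 34.9 and 33.8 CPM in the contralateral and 659 and 1354 CPM in the crushed libraries (log2 fold change 4.79 ± 0.27 (SE), edgeR adjusted p = 1.69e-07). anxa5.S had 98.4 and 85.4 CPM in the contralateral and 233 and 445 CPM in the crushed libraries (3.52-fold, edgeR adjusted p = 3.46e-04). Growth cone and regeneration-associated proteins had 7 of 36 higher and 16 lower (median -0.52), and 11 higher without the crushed library of day 7. The peptidase gene ecel1.1, a known injury marker of neurons, had 1.34 and 1.09 CPM in the contralateral and 60.9 and 66.8 CPM in the crushed libraries (log2 fold change 5.75 ± 0.25 (SE), edgeR adjusted p = 3.87e-10). marcksl1.L had 620.4 and 611 CPM in the contralateral and 69.8 and 92.2 CPM in the crushed libraries (7.68-fold, edgeR adjusted p = 1.03e-08). basp1.L had 1065 and 1008 CPM in the contralateral and 519 and 571 CPM in the crushed libraries (1.9-fold, edgeR adjusted p = 3.95e-04).

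Extracellular, trophic and guidance genes changed gene by gene. Extracellular matrix and proteases had 14 of 63 higher and 11 lower, near the background shares of 22.6% and 19.2%, and the lower count was 7 and 6 without the contralateral library of day 7 and of day 11. Their median of 0.07 was below 0 by total counts (-0.27), without the contralateral library of day 7 (-0.12) and without the crushed library of day 7 or of day 11 (-0.02 and -0.10). The plasminogen activator plat.L had 4.49 and 3.41 CPM in the contralateral and 96.8 and 109.5 CPM in the crushed libraries (log2 fold change 4.74 ± 0.22 (SE), edgeR adjusted p = 6.86e-10). The matrix metalloproteinase mmp24.L had 52.7 and 51.8 CPM in the contralateral and 523 and 504 CPM in the crushed libraries (9.82-fold, edgeR adjusted p = 2.26e-09). Integrins had 7 of 27 higher and 3 lower, with 8 lower by total counts and 7 against all 7 uninjured TRAP libraries. Their median of 0.11 became -0.22 by total counts and -0.01 without the contralateral library of day 7. Among them itga3.S rose 2.75-fold and pxn.S, the adhesion adaptor paxillin, 4.08-fold (edgeR adjusted p = 6.76e-05 and 4.45e-05). Trophic factors and receptors had 14 of 64 higher and 14 lower, also near the background. Insulin-like growth factor igf2.S had 3.58 and 5.64 CPM in the contralateral and 160.2 and 115 CPM in the crushed libraries (log2 fold change 4.85 ± 0.27 (SE), edgeR adjusted p = 6.66e-08). The chemokine receptor cxcr4.S had 3.64 and 2.68 CPM in the contralateral and 28.1 and 45.9 CPM in the crushed libraries (11.8-fold, edgeR adjusted p = 4.12e-07). fgf9.L and igfbp2.L fell 6.29-fold and 11.9-fold (edgeR adjusted p = 9.48e-08 and 5.04e-06). The copies of gfra2, a receptor for neurturin, parted. gfra2.L had 13.4 and 11.2 CPM in the contralateral and 131 and 170.3 CPM in the crushed libraries (12.2-fold, edgeR adjusted p = 4.81e-09). gfra2.S had 17.2 and 15.1 CPM in the contralateral and 4.17 and 1.79 CPM in the crushed libraries (5.79-fold, edgeR adjusted p = 1.68e-05). Guidance genes had 14 of 69 higher and 25 lower. Their median of -0.18 was -0.20 without the contralateral library of day 7. Among them sema3b.L rose 30.1-fold and plxnb3.S 19.9-fold (edgeR adjusted p = 4.99e-08 and 9.00e-08). Lower were plxnb1.S and nrcam.S, by 5.68-fold and 2.84-fold (edgeR adjusted p = 5.43e-07 and 6.90e-06).

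Markers of the ganglion cells themselves mostly fell, beside 22.6% higher and 19.2% lower over all genes tested. Of 52 tested 37 were lower, 5 higher and 10 not called (median -1.82). All 55 models of the list held 1.77% and 1.77% of TPM in the contralateral libraries and 0.552% and 0.761% in the crushed ones. In CPM, the scale used below for other cell types, the 52 tested members fell by less. They summed to 19932 and 18891 CPM in the contralateral libraries and 9890 and 15117 CPM in the crushed ones. The crushed sums include the risen tubb3.S, whose levels are given with the tubulins. The RNA-binding protein gene rbpms2.L had 2973 and 3020.2 CPM in the contralateral and 94.5 and 156 CPM in the crushed libraries (log2 fold change -4.63 ± 0.23 (SE), edgeR adjusted p = 1.49e-09). Gamma-synuclein, sncg.L, had 609.7 and 533 CPM in the contralateral and 20.1 and 18.1 CPM in the crushed libraries (29.9-fold, edgeR adjusted p = 1.24e-10). The POU-domain factor pou4f2.S had 79.4 and 86.5 CPM in the contralateral and 7.03 and 6.99 CPM in the crushed libraries (11.8-fold, edgeR adjusted p = 2.79e-09). The neurofilament heavy chain nefh.L had 285 and 223 CPM in the contralateral and 19.2 and 21.2 CPM in the crushed libraries (12.5-fold, edgeR adjusted p = 2.18e-09), and the T-box factors eomes.L and tbr1.L fell 9.24-fold and 7.13-fold (edgeR adjusted p = 2.10e-06 and 2.04e-06). Homeobox genes irx2.L, irx3.L and isl1.L fell 6.1-fold, 11.4-fold and 3.54-fold (edgeR adjusted p = 7.16e-08, 2.23e-04 and 7.28e-07). The surface glycoprotein thy1.L had 688 and 640.4 CPM in the contralateral and 501 and 499 CPM in the crushed libraries. It did not pass (edgeR adjusted p = 0.0581), but did in 8 of the 12 alternative settings. DESeq2 (adjusted p = 0.0286) and total counts were among these. The medium neurofilament nefm.L had 814 and 609 CPM in the contralateral and 791 and 1324 CPM in the crushed libraries. It did not pass (edgeR adjusted p = 0.121), though it did in 4 of the 12 alternative settings. Tau, mapt.L, did not pass (edgeR adjusted p = 0.39) but did by total counts and without the crushed library of day 11. Members that rose were both copies of tubb3, elavl2.S, mapt.S and slc17a7.S, of which tubb3 is also in the tubulin list; 3 members were higher without the contralateral library of day 11, where mapt.S and slc17a7.S lost their calls (edgeR adjusted p = 0.108 and 0.0569). The call of mapt.S was also lost by total counts, without the block, without the contralateral library of day 7 and without the crushed library of day 11, and both calls were lost with copies summed.

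Genes of mature signalling were lower in shares above the background of 19.2%. Neurotransmitter receptors had 30 of 56 lower and 2 higher (median -1.57). The nicotinic subunit gene chrnb3.L had 206 and 180.3 CPM in the contralateral and 27.3 and 39.7 CPM in the crushed libraries (log2 fold change -2.55 ± 0.20 (SE), edgeR adjusted p = 1.24e-07). The glycine receptor gene glrb.L had 95 and 87.3 CPM in the contralateral and 24.2 and 15.4 CPM in the crushed libraries (4.71-fold, edgeR adjusted p = 2.23e-07), and grin2a.S, an NMDA receptor subunit, fell 10.1-fold (edgeR adjusted p = 2.04e-07). Potassium channels had 25 of 52 lower, 3 higher (median -0.95), and 16 lower without the contralateral library of day 11. kcna1.L had 106 and 114 CPM in the contralateral and 10.1 and 10.5 CPM in the crushed libraries (10.6-fold, edgeR adjusted p = 2.58e-09). Sodium, calcium and HCN channels had 16 of 35 lower and 4 higher. The sodium channel subunit scn2b.L had 419 and 342 CPM in the contralateral and 16.5 and 9.76 CPM in the crushed libraries (log2 fold change -4.89 ± 0.20 (SE), edgeR adjusted p = 1.91e-10), and cacnb3.S fell 2.66-fold (edgeR adjusted p = 4.35e-06). Synaptic vesicle release genes had 24 of 47 lower and 6 higher (median -0.60), holding 0.928% and 0.982% of TPM in the contralateral libraries and 0.283% and 0.226% in the crushed ones. Complexin, cplx1.1, had 2322 and 2561 CPM in the contralateral and 226 and 171 CPM in the crushed libraries (log2 fold change -3.63 ± 0.21 (SE), edgeR adjusted p = 4.83e-09). The endocytic GTPase dnm1.1 had 224 and 210.3 CPM in the contralateral and 35.4 and 32.2 CPM in the crushed libraries (6.42-fold, edgeR adjusted p = 1.16e-08). snap25.L, a SNARE of the release machinery, had 2622 and 2645 CPM in the contralateral and 1187 and 1009 CPM in the crushed libraries (2.41-fold, edgeR adjusted p = 3.98e-05), while the synaptotagmin syt4.S rose to 726 and 532 from 215 and 146 CPM (3.51-fold, edgeR adjusted p = 5.09e-07).

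Markers of other cell types had counts below, near or above the 22.6% higher and 19.2% lower of all genes tested, and their part in the results above was not tested. Photoreceptor markers summed to 4666 and 5122 CPM in the contralateral libraries and 3479 and 3664 CPM in the crushed ones, with 19 of 56 lower and 0 higher; the lower count was 42 by total counts, 33 against all 7 uninjured TRAP libraries and 7 and 2 without the contralateral library of day 7 and of day 11. Bipolar markers summed to 506 and 553 CPM in the contralateral libraries and 183 and 206 CPM in the crushed ones and fell in 10 of 18, 6 without the contralateral library of day 11; isl1, which ganglion cells also express, is among them. Amacrine and horizontal markers summed to 719.7 and 708 CPM in the contralateral libraries and 351 and 264 CPM in the crushed ones with 2 of 23 higher and 6 lower, a share of 26.1% lower; barhl2.L, a homeobox gene, fell from 233 and 232 to 17.9 and 18.3 CPM (12.9-fold, edgeR adjusted p = 9.12e-10). Mueller glia and astrocyte markers summed to 541 and 577 CPM in the contralateral libraries and 687 and 992 CPM in the crushed ones with 10 of 30 higher and 6 lower, vim.L holding most of the gain; 3 were lower without the contralateral library of day 7 or of day 11, and in DESeq2. Their ratio to total retina stayed negative in all 4 libraries, with medians of -2.21 and -2.17 in the contralateral and -2.20 and -1.84 in the crushed eyes. Pigment epithelium markers summed to 32.2 and 42.9 CPM in the contralateral libraries and 11.6 and 10.6 CPM in the crushed ones, with 3 of 8 lower, 1 without the contralateral library of day 11, and dct.S, ttr.L, ttr.S and tyrp1.S at 0. Leukocyte markers summed to 12.2 and 11.8 CPM in the contralateral libraries and 16 and 14 CPM in the crushed ones: 1 of 6 was higher, cd4.S, and cd4.L, ctss.2.L and ptprc.L were at 0. Oligodendrocyte and Schwann markers summed to 554 and 645 CPM in the contralateral libraries and 216 and 180.5 CPM in the crushed ones, with 2 of 7 higher and 2 lower, most of the sum being mpz.L, which had 523 and 619 CPM in the contralateral and 97.5 and 64.5 CPM in the crushed libraries (7.17-fold, edgeR adjusted p = 2.23e-07). olig1.L, olig1.S and olig2.L were at 0. Endothelial and blood markers summed to 49 and 60.3 CPM in the contralateral libraries and 107 and 58.3 CPM in the crushed ones with 3 of 19 higher and 1 lower, 1 higher without the contralateral library of day 11 and 4 lower without the crushed library of day 7, and alas2.1, hbd.L and hbd.S at 0. Lens and cornea markers summed to 19.7 and 48 CPM in the contralateral libraries and 31.7 and 52.6 CPM in the crushed ones with 1 of 15 higher and 1 lower; 3 were higher without the contralateral library of day 11 and 2 lower without the crushed library of day 11.

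The remaining lists moved in both directions, beside 22.6% higher and 19.2% lower over all genes tested. Apoptosis and DNA-damage genes had 25 of 57 higher and 11 lower. The stress-inducible gadd45g.S had 15.9 and 12 CPM in the contralateral and 519.5 and 333 CPM in the crushed libraries (log2 fold change 4.91 ± 0.19 (SE), edgeR adjusted p = 1.29e-10). diablo.L, a caspase activator, had 17.2 and 12.9 CPM in the contralateral and 126 and 122 CPM in the crushed libraries (8.36-fold, edgeR adjusted p = 8.41e-09), and casp9.S rose 3.94-fold (edgeR adjusted p = 5.89e-07). The MAP kinase phosphatases dusp4.L and dusp6.L fell 3.88-fold and 3.81-fold (edgeR adjusted p = 1.54e-06 and 1.08e-05), and nmnat2.L, which protects axons, 2.14-fold (edgeR adjusted p = 7.45e-05). Autophagy and lysosome genes had 12 of 47 higher and 14 lower, with 23 lower by total counts and 8 and 7 without the contralateral library of day 7 and of day 11: sqstm1.L, a selective autophagy receptor, rose 4.11-fold, and gabarapl2.L fell 1.99-fold (edgeR adjusted p = 1.50e-07 and 1.35e-04). Axonal transport motors had 15 of 46 higher and 7 lower, and 5 and 13 by total counts, where the median of 0.22 became -0.11. Their higher count was 7 and 9 without the contralateral library of day 7 and of day 11 and 21 against all 7 uninjured TRAP libraries, and 4 were lower without the contralateral library of day 11. Muscle-type contractile genes had 9 of 32 higher and 8 lower (28.1% and 25%), near the shares over all genes, with a median of -0.30 that was 0.19 without the contralateral library of day 7; flnc.L, cryab.L and csrp3.L belong to it too. Of 39 cell cycle genes 32 were not called; 4 were lower, 7 without the crushed library of day 7. Interferon and antigen presentation genes had 5 of 19 higher and 1 lower, 3 higher without the contralateral library of day 11: herc6.L rose 23.8-fold (edgeR adjusted p = 9.26e-08).

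**Figure D4:**
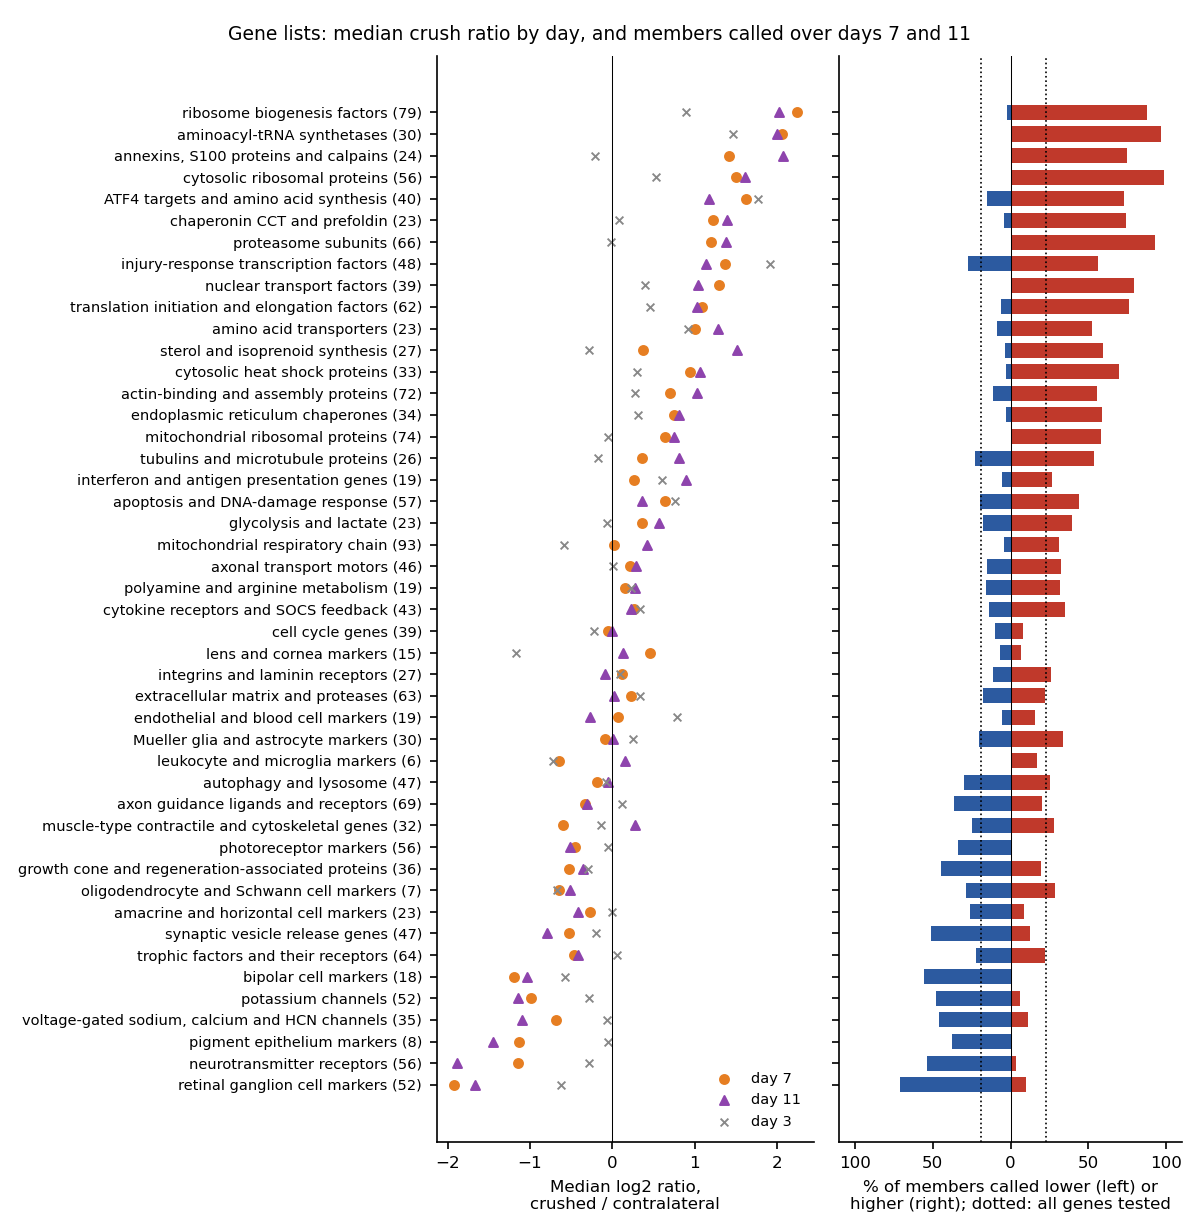
Left, median log2 ratio of crushed to contralateral eye for each of the 46 gene lists at day 7 (circles), day 11 (triangles) and day 3 (crosses), with the number of tested members in brackets; right, the percent of members called higher (red) and lower (blue) over days 7 and 11, with dotted lines at the shares over all genes tested, 22.6% and 19.2%. Ribosome biogenesis factors lie at 2.24 and 2.02 and ganglion cell markers at -1.92 and -1.66 at days 7 and 11; at day 11 annexins (2.08) lie above the former and neurotransmitter receptors (-1.88) below the latter. Day 3 medians take only those tested members with enough counts in that pair, so the number in brackets can exceed theirs. Members were chosen with results known, so the positions are descriptions.

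Over the genes tested, the log2 ratios of day 7 and day 11 correlated at r = 0.74; these are genes, not independent replicates, and the days share no library. The difference of the 2 ratios, day 11 minus day 7, had an SD of 1.17 over these genes. Genes called higher, a choice that favours like ratios on both days, had median log2 ratios of 1.24 at day 7 and 1.31 at day 11, and the lower ones -1.38 and -1.52. The crushed pair differed more between days than the contralateral pair: 990 of 18770 genes were over 2-fold apart, against 233 of 17986, though the number of libraries allows no test of this. Some genes moved further at day 11, such as tubb2b.L, from 270.3 and 269 to 1215 and 2593 CPM (6.59-fold, edgeR adjusted p = 6.34e-06), and anxa2.S. Of the genes whose day ratios lay farthest apart, hs3st2.S, a heparan sulfate sulfotransferase, fell to 1.5 and 0.0757 CPM from 14 and 11.3, and c14orf79.L rose to 30.7 and 47.1 from 0.0535 and 1.8. The call of hs3st2.S was lost without the contralateral library of day 7 or of day 11 (edgeR adjusted p = 0.367 and 0.356), and that of c14orf79.L without the crushed library of day 7 (edgeR adjusted p = 0.164).

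Genes called over the late days leaned the same way at day 3, while at day 1 their medians were near 0. In the day 3 pair (1 crushed library against 1 contralateral, no test) 75.9% of the higher genes had a ratio above 0, with a median log2 ratio of 0.39, and 21.5% of the lower, with a median of -0.39; over all genes tested with enough counts it was 49.6%. At day 1 the shares were 49.6% and 48.1% (medians -0.00 and -0.01), and in the sham pair 52.5% and 45.9%. Over all genes tested with enough counts they were 49.2% at day 1 and 48.6% in the sham pair. A few of the higher genes were already far apart at day 1: 72 of 5200 stood above 2-fold up and 9 beyond 2-fold down, against 16 and 26 of 5021 in the sham pair. Of the lower genes 27 and 25 of 4933 lay beyond 2-fold up and down at day 1. No such count over all genes tested is given, so these counts are not read as a trait of the late genes. Among named genes lep.S stood at 6.74 at day 3 and socs3.L at 5.81, against late values of 7.13 and 6.41, while tuba1b.S was at -0.02 and rbpms2.L at -1.22. Groups with a day 3 median near or below 0 include proteasome subunits (median -0.01), annexins (-0.22) and tubulins (-0.17).

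**Figure D5:**
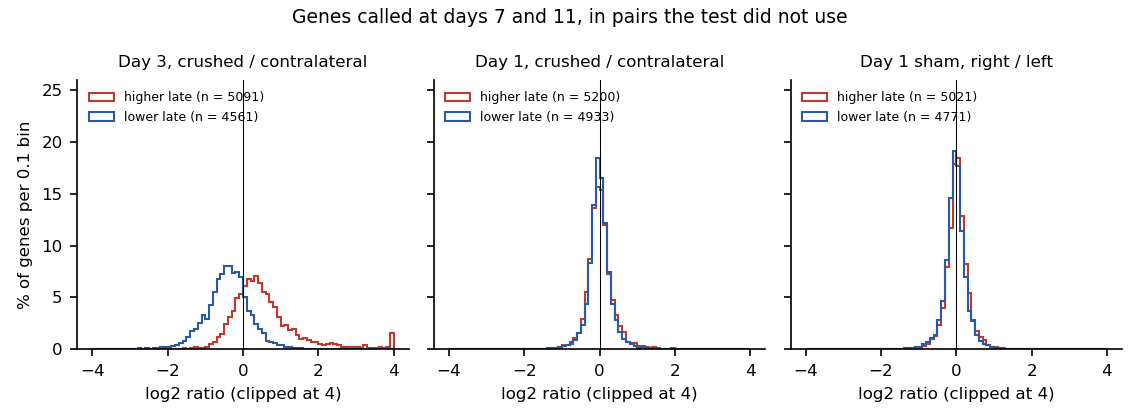
Distribution of log2 ratios (right or crushed eye over the other, clipped at 4) for the genes called higher (red) and lower (blue) at days 7 and 11, in the day 3, day 1 and sham pairs; the vertical axis is the percent of genes per bin of 0.1. At day 3 the medians are 0.39 and -0.39, and at day 1 both are near 0.

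The called genes were not spread evenly over the features that the rule did not use. Among the 780 genes over 4-fold enriched in naive TRAP over total retina, 64.9% were lower after crush and 13.7% higher, with a median log2 fold change of -1.34. Genes within 2-fold of total retina had 21.1% lower and 29.9% higher. Naive and total libraries are outside the comparison, but naive TRAP, like the contralateral libraries, is TRAP RNA of uninjured eyes. Genes enriched in it may start high on the contralateral side, so this reading is not independent of the calls. By gene-model length, the shortest genes (first of 5 equal bins) had 21.9% higher and 13% lower, and the longest 15.4% and 26.4%, alongside the shorter mean length of RNA in the crushed libraries given above; how far length bears on any result was not tested.

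Homeologous .L and .S copies, left by genome duplication, differed in many pairs. Of 4855 pairs, both were higher in 768, both lower in 637, neither was called in 1689, 1 was called in 1666 and the copies were called in opposite directions in 95. The median absolute difference of log2 fold change between copies was 0.605. The gfra2 copies described above are among those called in opposite directions. Where copies are near identical their reads may be split between models, so a single copy's value is less sure than the sum of both.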

How the data were processed

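Ribosome-bound RNA from 2 crushed and 2 contralateral eye pools was analysed. Per the submitters' processing notes, the authors used Trimmomatic 0.33, Bowtie2 2.2.5 and RSEM 1.2.21; the build of the genome, like its annotation, is not given in the sources used here. Deposited by the authors were an expected count per gene model (a read count estimated by RSEM, 58.2% of them whole within 0.001) and a TPM value, per the file headers. Expected counts were rounded to whole numbers. TPM entered only as shares of gene lists, summed over all models of a list, tested or not. The low-count filter filterByExpr by eye left 26501 of 45099 models. The test was edgeR 4.0.16's quasi-likelihood F test (robust, TMM, day as block) in R 4.3.3, with 1 residual degree of freedom and, through the shared prior, a median of 14.5 in all, and Benjamini-Hochberg adjustment over all genes tested. The script was tested first on simulated data with a lower dispersion, far fewer changed genes and a day effect shared by both sides. That run does not measure false calls in the real data. Each SE given is the absolute log2 fold change divided by the square root of the edgeR F statistic. It was not estimated apart from the test. Day pairs the libraries because, per the labels' protocols, both eyes come from the same frogs; same-day deviations from the side means correlated at 0.022. Chi-square per gene was 14.7 and 93.9 within the sides, so no library repeats another.

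Pairs of single libraries (days 1 and 3, sham, naive TRAP against total retina) give log2 ratios of CPM scaled by TMM over all 12 libraries, with a prior count of 2 and at least 200 counts over the pair, without test. Named genes are, among called genes with a symbol, a mean of at least 100 counts and 1 direction on both days, the 12 highest and 12 lowest folds, then the smallest p-values, the largest gains and losses of CPM, the genes with the most differing day ratios, and for each of 46 gene lists its most abundant or most significant members, with all members of 3 lists eligible. The text gives a part of them; rpl10a.S and the 2 unnamed models were picked after their values were seen. Members, lists and rules were chosen with earlier results of these data known. List counts are of gene models, with .L and .S copies apart, and listed symbols without a matching model were left out. RefSeq names of assembly Xenopus_laevis_v10.1 were used for no coordinates. Where a side has 0 counts, 3 counts over its libraries set the limit; with such genes at this limit no list median moved. Alternatives were RLE and total-count scaling, no filter, DESeq2 1.42.0, limma-voom (limma 3.58.1), no block, each library left out, all 7 uninjured TRAP libraries as controls, and copies summed.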

Additional observations from a re-analysis of the deposited data

Results flagged for a closer look

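Some results pointed one way at days 7 and 11 and the other way in the day 3 pair; the difference was not tested in any of them, since day 3 has 1 library a side. Genes higher late (log2 fold change) and lower at day 3 (log2 ratio) were snap29.S (1.67 late, -2.11 at day 3), alkbh8.S (1.36, -1.59), c12orf45.S (1.21, -1.55) and chchd7.L (0.97, -1.51). Lower late and higher at day 3 were the immediate-early gene egr1.S (-2.71, 1.91), the protease genes adamts1.L (-1.05, 1.80) and adamts1.S (-1.26, 1.61), and fam46a.S (-1.64, 1.58). The late call of adamts1.L was lost in DESeq2 (adjusted p = 0.0622), against all 7 uninjured TRAP libraries and without either contralateral library or the crushed library of day 7, that of adamts1.S without the contralateral library of day 11, that of chchd7.L by total counts and that of egr1.S with copies summed. All 8 are low-level genes, under 25 CPM in each of the late libraries.

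Medians of gene lists also had another sign at day 3. A day 3 median takes only members with enough counts in that pair, scaled over all libraries of the series. The medians of days 7 and 11 take the tested members, scaled over the late libraries only. Members and scaling thus differ between them, and their part in these changes was not tested. The respiratory chain stood at -0.59 at day 3 and 0.03 and 0.42 at days 7 and 11, annexins at -0.22 and 1.42 and 2.08, sterol synthesis at -0.28 and 0.37 and 1.51, and tubulins at -0.17 and 0.36 and 0.81. Proteasome subunits were at -0.0119 and then 1.19 and 1.37, mitochondrial ribosomal proteins at -0.0492 and 0.64 and 0.75, and glycolysis at -0.0701 and 0.36 and 0.56. Guidance genes went from 0.12 to -0.33 and -0.31, and trophic genes from 0.0531 to -0.47 and -0.42. Lens and cornea markers went from -1.17 to 0.46 and 0.13, with the number of members in the day 3 median not given. Amacrine and horizontal cell markers were at 7.37e-04 and then -0.27 and -0.42. The day 3 medians of the amacrine, proteasome, mitochondrial ribosomal, glycolysis and trophic lists lie near 0, so their sign is not read. By total counts the late medians of the respiratory chain, glycolysis and the lens and cornea markers were below 0 (-0.10, -0.08 and -0.21). The lens and cornea median was also below 0 without the contralateral library of day 7 (-0.23) and without the crushed library of day 11 (-0.38).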

How the results depend on the processing

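No called gene was called in the opposite direction under another scaling, filter, tool, control set or left-out library. Genes that lost the call were not examined for sign: by total counts 9035 kept call and direction. Every alternative kept the number of called genes within 1.5 times of 11079. RLE scaling gave 10938, total counts 10890, no filter 11539, DESeq2 9944, limma-voom 11894 and the 7 uninjured TRAP libraries as controls 13899. Without the day as replicate block 10815 genes were called. With a library left out and no block, in fits that assume the lone library varies like the other side, 7971 to 12110 were called. With the counts of .L and .S copies summed, 8958 of 21694 genes were called, and gfra2.S, whose partner gfra2.L is the more abundant after crush, took the summed log2 fold change of 2.43 by construction. Not every called gene named above was followed through the settings: both copies of lifr and of slc43a2, among others, were not. Of 160 called genes that were followed, 150 kept direction and call in all settings that tested them. With left-out libraries 155 to 159 of them stayed called. With 2 pooled libraries a side, changes of genes at a few counts are the least certain.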
